A study of Mus musculus with 2 samples.

Results

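The Z-disc is the boundary between neighbouring sarcomeres of striated muscle, and 10 genes that encode its components or the alpha-actinin family were followed in the fetal mouse mandible. The genes were taken by name: the alpha-actinins Actn1, Actn2, Actn3 and Actn4, telethonin (Tcap), myotilin (Myot), the myozenins Myoz1, Myoz2 and Myoz3, and the PDZ and LIM domain protein Ldb3. Each had 1 probe set of its own on the array, so the 10 genes were 10 of the 19938 genes with a probe set, and no probe set shared a member with another gene. The mandibles came from fetuses at E18.5 (embryonic day), shortly before birth. The wild-type sample carried the BALB/c background alone, and the double-knockout sample was null for both Myf5 and MyoD on BALB/c. Myf5 and MyoD direct progenitor cells into the skeletal muscle lineage, and the series asks what muscle contributes to jaw development. Each genotype was profiled on 1 array. The sources used here do not give the number of fetuses behind each sample.

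In the sarcomere, alpha-actinin dimers crosslink the barbed ends of actin filaments from opposite sides of the Z-disc. Titin, the myozenins, myotilin, filamin C and Ldb3 attach to this lattice. Actn2 is made in all striated muscle and Actn3 mainly in fast fibres. Actn1 and Actn4 serve stress fibres, cell junctions and adhesions of non-muscle cells, where their actin binding responds to calcium. A fetal jaw holds both kinds of cells, the fibres of the jaw and tongue-floor muscles beside bone, cartilage, epithelium, vessels and glands.

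The 8 muscle members were lower in the double-knockout mandible, and the 2 non-muscle alpha-actinins were slightly higher. All 10 genes exceeded the floor in the wild type, where the floor is the median of the annotated probe sets, at a log2 signal of 6.18 for the wild type and 6.19 for the double knockout. In the double knockout 3 of the 10 remained above it, Actn3, Actn1 and Actn4. Where the double-knockout value lay under the floor, it was raised to the floor, so the difference is a bound and is written "at least". Of the 8 muscle members, 7 were at least 2-fold lower, against 2.73% of the 10393 genes measured above the floor on at least 1 array. The 8 had a median log2 difference of -4.00 or lower (double knockout minus wild type), and all measured genes had a median of 0.098. With 1 array per genotype there is no replicate check and no test. The only spread that can be given is that between probe sets of the same gene. It is the SD of the gap between the log2 differences of a gene's 2 brightest probe sets. This SD was 0.23 over 532 genes that had several above the floor on both arrays. In whole tissue, fewer muscle cells and less RNA per muscle cell cannot be told apart.

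**Figure D1:**
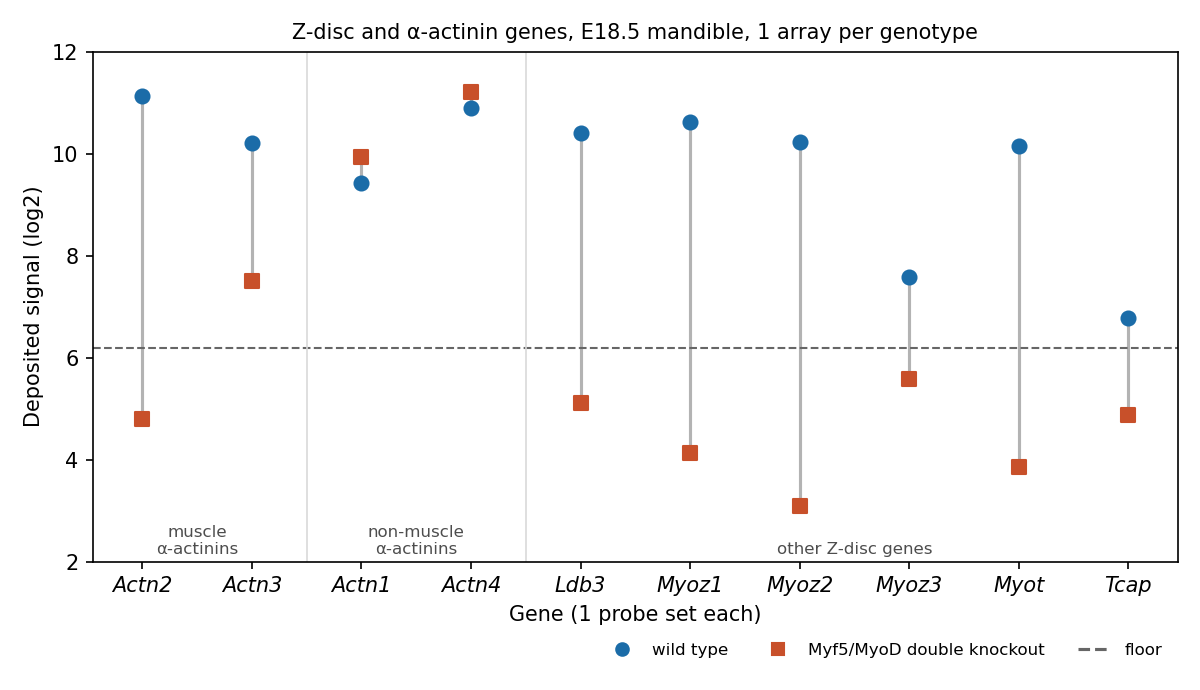
Deposited log2 signal (y axis) of the 10 genes (x axis) on the wild-type array (circles) and the Myf5/MyoD double-knockout array (squares), with the floor as a dashed line. All circles lie above the floor, 7 squares lie below it, and only Actn1 and Actn4 have the square above the circle.

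The targeted genes read near the floor on both arrays or under it. The Myf5 probe set read 6.31 on the wild-type and 4.95 on the double-knockout array, and the Myod1 probe set read 7.14 and 6.49. Both were lower in the double knockout, with log2 differences of -0.13 or lower for Myf5 and -0.66 for Myod1. The sources used here do not say whether either probe set lies in deleted sequence. Jaw tissue markers were present on both arrays. All 5 bone genes and all 6 epithelial genes with a probe set were above the floor on each, as were the cartilage genes Col2a1, Acan and Sox9 (3 of 6 cartilage genes), while Matn1, Col9a1 and Comp were under it on both.

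The alpha-actinin family divided by muscle and non-muscle type. The promoter windows of the 3 of its genes that were searched are shown, and no window was available for Actn3. RefSeq (GRCm38.p6) gives each as 250 bases before to 50 bases after the transcription start, on the minus strand of the genome and read 5′ to 3′. Capitals mark every match to the E-box CANNTG, the 6-base element that myogenic bHLH factors such as MyoD bind in muscle enhancers, and which reads the same way on both strands.
Actn2, chr13:12340683-12340982: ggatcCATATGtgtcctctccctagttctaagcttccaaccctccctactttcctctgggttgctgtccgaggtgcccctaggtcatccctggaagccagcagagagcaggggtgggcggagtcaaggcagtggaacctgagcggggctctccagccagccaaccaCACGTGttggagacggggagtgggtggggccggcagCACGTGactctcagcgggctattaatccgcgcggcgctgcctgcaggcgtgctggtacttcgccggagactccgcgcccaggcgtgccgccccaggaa
Actn1, chr12:80260314-80260613: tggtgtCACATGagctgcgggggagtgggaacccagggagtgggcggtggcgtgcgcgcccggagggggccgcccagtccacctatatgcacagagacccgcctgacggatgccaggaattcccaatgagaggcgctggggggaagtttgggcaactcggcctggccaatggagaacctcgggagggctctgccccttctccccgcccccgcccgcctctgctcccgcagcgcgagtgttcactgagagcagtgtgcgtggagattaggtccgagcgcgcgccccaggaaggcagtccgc
Actn4, chr7:28962283-28962582: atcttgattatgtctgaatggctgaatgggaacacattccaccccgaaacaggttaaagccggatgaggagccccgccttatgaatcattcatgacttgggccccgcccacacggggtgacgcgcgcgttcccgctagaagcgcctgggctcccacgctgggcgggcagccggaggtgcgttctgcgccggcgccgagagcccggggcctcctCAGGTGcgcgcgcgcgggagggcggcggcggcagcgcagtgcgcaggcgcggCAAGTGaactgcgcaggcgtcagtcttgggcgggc

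The Actn2 window held 3 E-box matches, CATATG at 245 bases before the start and CACGTG at 84 and 48 bases before it. The Actn1 window held 1, CACATG at 244 bases before the start. The Actn4 window held 2, CAGGTG at 37 bases before the start and CAAGTG from base 16 after it. An E-box match was present in 72.3% of all 32851 windows of this length, and the matches describe the sequence alone.

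Actn2, the alpha-actinin of all striated muscle, read 11.13 on the wild-type and 4.80 on the double-knockout array. It was therefore at least 30.7-fold lower, a log2 difference of -4.94 or lower, and 13 of the 10393 measured genes had a lower floored difference. Actn3, the alpha-actinin of fast fibres, read 10.21 and 7.49. Its difference of -2.72, or 6.59-fold lower, was the only one among the muscle members that was measured above the floor on both arrays. That depends on the floor chosen. With the floor at the 25th percentile, 5 muscle members exceeded it in the double knockout. With it at the median of all probe sets 2 did, and at the 75th percentile 0 did, Actn3 included. Of the 9468 genes above the floor on both arrays, 14 had a lower difference than Actn3.

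Actn3 thus kept a signal 1.31 log2 units above the floor in the mandible without Myf5 and MyoD. Other genes at least 2-fold lower also stayed above it, among them the muscle enolase Eno3 (7.86), filamin C (Flnc, 7.77), the small heat shock protein Cryab (8.03), Pdlim3 (6.47) and desmin (Des, 6.33), chosen after their values were seen. None of 19 genes in the lists of skeletal muscle markers and fast fibre genes did so. Those lists held the 10 skeletal muscle markers and 9 fast fibre genes, and the highest double-knockout value in them was 5.94, that of the muscle creatine kinase Ckm. What the remaining Actn3 signal comes from was not tested. It is the signal of 1 probe set, so no second set of probes checks it. No other RefSeq gene overlaps Actn3. Actn2 overlaps 1 predicted gene, Gm40667, and Actn4 overlaps Capn12 and 2 predicted genes.

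The non-muscle forms ran the other way. Actn1 read 9.42 on the wild-type and 9.93 on the double-knockout array. It was 1.42-fold higher, by 0.50 on the log2 scale. Actn4 read 10.89 and 11.21, a difference of 0.33 or 1.25-fold higher. Neither was at least 2-fold higher, and 0.510% of measured genes were. The differences of 4.86% of measured genes were higher than that of Actn1, and those of 14.6% were higher than that of Actn4. The Actn1 difference exceeded the median of all genes by 0.40 and the Actn4 difference by 0.23, the latter about the size of the SD between probe sets of the same gene. The 2 differed from each other by 0.18, less than that SD. Setting the median of all genes to 0 gives the same 0.40 and 0.23 by construction. After quantile normalisation both Actn1 and Actn4 stayed above 0 (0.46 and 0.28).

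Set against each other, the muscle pair had a mean difference of -3.83 or lower, since Actn2 is a bound, and the non-muscle pair one of 0.41. The muscle alpha-actinins thus differed from the non-muscle ones by -4.25 or lower on the log2 scale, at least 19.0-fold, between these 2 arrays. Actn3, which is not a bound, stood at -3.13 log2 units (8.78-fold lower) relative to the mean of the non-muscle pair, and Actn2 at -5.36 or lower. The contrast shows unequal change between the types, not that the non-muscle genes themselves did not change.

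**Figure D2:**
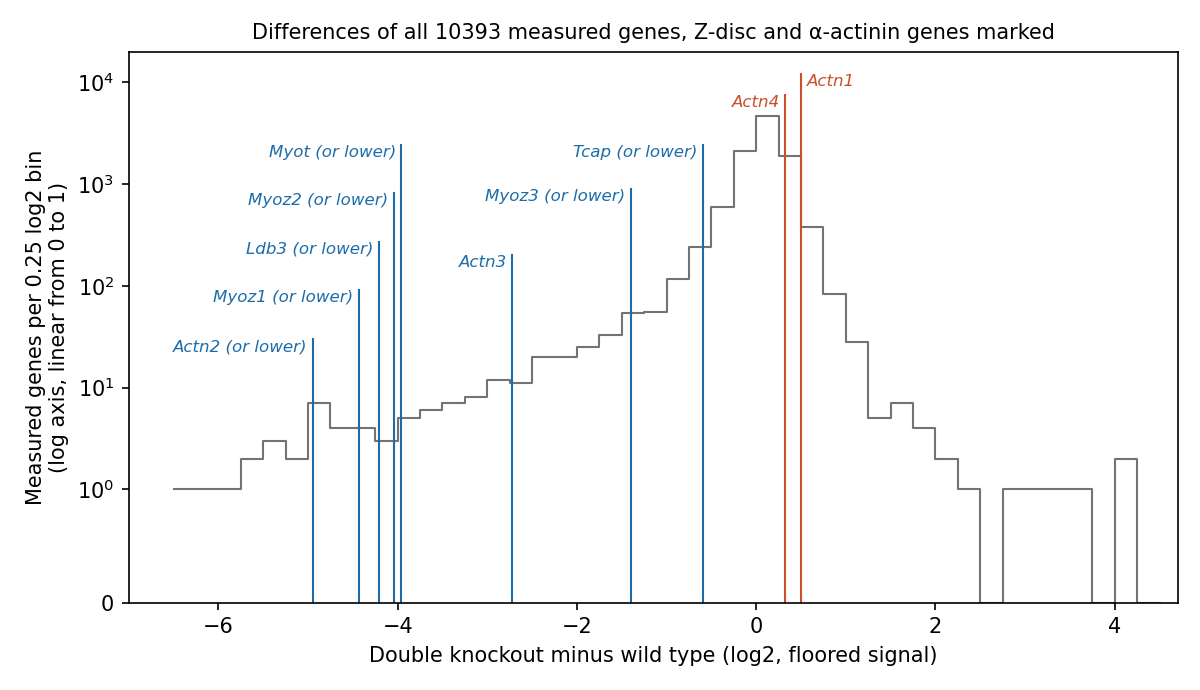
Number of measured genes (y axis, log) at each log2 difference, double knockout minus wild type on floored signal (x axis), with vertical lines for the muscle members (blue) and the non-muscle alpha-actinins (orange). Actn2, Ldb3, Myot and the myozenins Myoz1 and Myoz2 lie in the sparse left tail at -3.96 or lower. Actn1 and Actn4 lie on the upper side of the main peak, above the upper quartile of 0.24.

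The adaptor Ldb3, known also as Cypher or ZASP, links alpha-actinin to other Z-disc proteins through its PDZ and LIM domains. It read 10.39 on the wild-type and 5.11 on the double-knockout array, at least 18.46-fold lower (-4.21 or lower). Its probe set is annotated to several transcripts, so forms with and without LIM domains cannot be told apart. RefSeq gives 2 overlapping promoter windows for Ldb3, and both hold the element CCATTTATGG, a match to the CArG box bound by serum response factor, at 35 or 109 bases before the start. A CArG match was present in 1.63% of all windows. No E-box match lies in either window, which says only that these letters are absent there.

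The myozenins, called calsarcins or FATZ proteins as well, tether the phosphatase calcineurin to the Z-disc and bind alpha-actinin and filamin C. In adult muscle Myoz1 and Myoz3 belong mainly to fast fibres and Myoz2 to slow fibres and heart. Myoz1 read 10.62 on the wild-type and 4.12 on the double-knockout array, at least 21.6-fold lower. Myoz2 read 10.23 and 3.09, at least 16.5-fold lower. Myoz3 began nearer the floor, at 7.59 against 5.58, and was at least 2.64-fold lower. All 3 genes lay above the floor in the wild type alone. Their bounds are ordered by how far each wild-type signal stood over the floor, and they give no order of loss among the 3.

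The Myoz2 window is shown because, among the 5 members searched, it alone held a MEF2 match or the E-box CAGCTG. Capitals mark the MEF2 consensus, which begins 33 bases before the start, and the E-boxes CAGTTG and CAGCTG, which begin 22 and 12 bases before it.
Myoz2, chr3:123034938-123035237: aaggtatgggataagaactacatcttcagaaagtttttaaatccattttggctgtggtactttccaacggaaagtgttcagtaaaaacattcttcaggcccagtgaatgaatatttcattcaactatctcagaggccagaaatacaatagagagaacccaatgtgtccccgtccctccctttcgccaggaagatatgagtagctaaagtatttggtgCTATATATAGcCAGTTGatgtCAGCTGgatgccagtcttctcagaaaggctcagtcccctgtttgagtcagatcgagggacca

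A MEF2 match, searched by its consensus on both strands, was present in 3.19% of all windows, and CAGCTG, which is one form of CANNTG, in 16.3%. An E-box of any form was present in 4 of the 5 members searched, Actn1, Actn2, Actn4 and Myoz2. These matches describe the reference sequence, and no binding was measured.

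Myotilin, encoded by Myot, crosslinks actin filaments and binds alpha-actinin and filamin C. It read 10.15 on the wild-type and 3.85 on the double-knockout array, at least 15.6-fold lower (-3.96 or lower). Telethonin, encoded by Tcap, caps the N-terminal ends of paired titin molecules in the Z-disc. It read 6.78 and 4.88, and since it began 0.61 above the floor, it could be called only at least 1.51-fold lower. Tcap was the 1 muscle member not called at least 2-fold lower. As deposited, its 2 values were 3.73-fold apart, and it was at least 2-fold lower with lower floors or none. Above the floor in the wild type alone were 7 of the 10 members, all 7 of them muscle members, against 4.53% of the 9917 genes that exceeded the floor there.

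Other genes of the Z-disc and of the costamere, which ties it to the membrane, were counted from a list with 29 measured genes. At least 2-fold lower were 16, none was at least 2-fold higher and 13 were neither, with a median of -1.502 or lower, since 12 of the 29 were bounds. The intermediate filament protein desmin (Des) read 11.28 on the wild-type and 6.33 on the double-knockout array and was 31.1-fold lower. The thin-filament ruler nebulin (Neb) was at least 29.4-fold lower, the molecular spring titin (Ttn) at least 28.5-fold and the alpha-actinin-binding LIM protein Pdlim3 17.2-fold. The actin-capping subunit Capzb, 1 of the 4 brightest of the list by mean signal over both arrays and made in most cells, read 9.84 and 9.74, a difference of -0.10. Filamin C (Flnc), a partner of the myozenins and myotilin chosen after its values were seen, read 10.56 and 7.77 and was 6.92-fold lower. Like Actn3 it stayed over the floor in the double knockout, and 17 of the 29 did so, Flnc included. Below the floor on both arrays were Ankrd1 and Igfn1.

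The non-muscle alpha-actinins were set beside genes of the structures they serve. Of 19 measured genes of focal adhesions and stress fibres, none was at least 2-fold apart in either direction, 11 were higher and 8 lower, and the median was 0.14. Of all 10393 measured genes, 10056 were not called 2-fold apart either and 6963 were higher, so these counts do not set the list apart. The non-muscle myosin heavy chain Myh9 differed by 0.52, the adhesion LIM proteins Zyx and Tes by -0.51 and 0.42, and the integrin activator Fermt2 by -0.39. With the median of all genes taken as the reference, 10 of the 19 lay above it and 9 below, and the differences of Actn1 and Actn4 lay within their range of -0.51 to 0.52. Calcineurin, which the myozenins bind, activates the NFAT factors. Among its subunits, its regulators and the NFAT genes, none of 10 measured genes was called 2-fold apart (median difference 0.16). The largest differences were in Nfatc2 (-0.72 or lower), Rcan2 (0.56), Nfatc1 (0.52) and Nfatc3 (0.30). Nfatc2 began too near the floor to be called 2-fold lower, and as deposited its values were more than 2-fold apart.

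**Figure D3:**
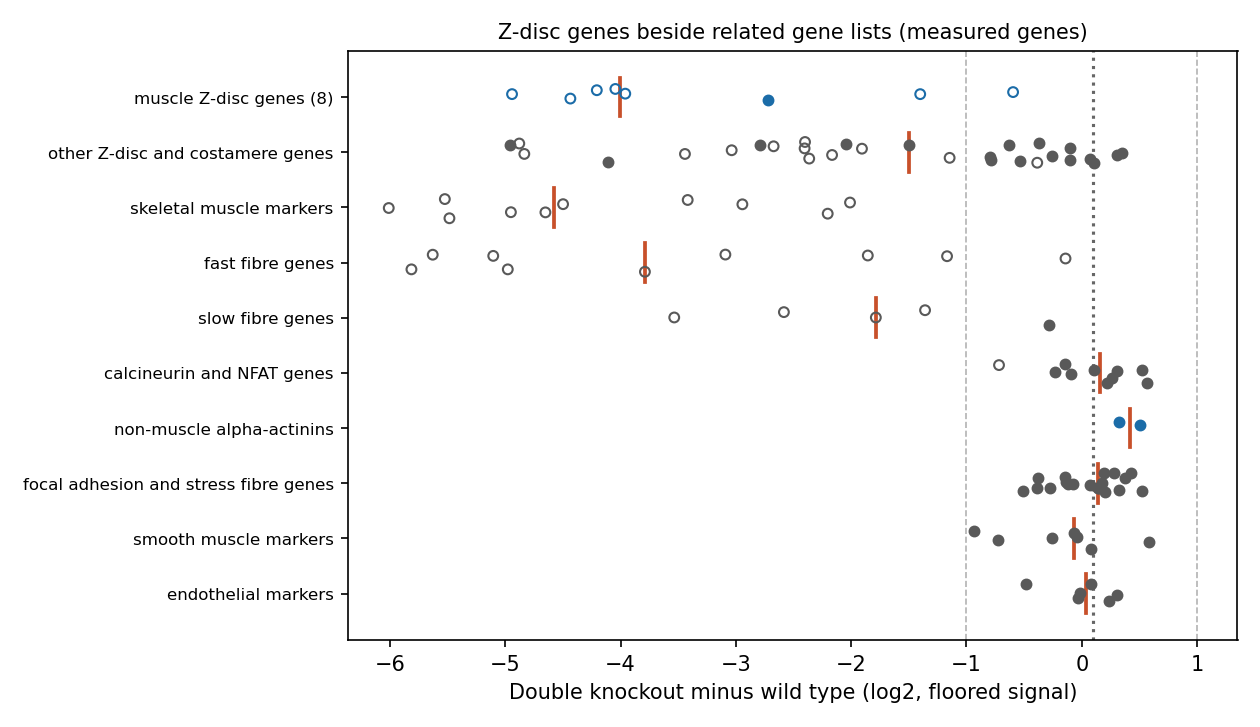
Log2 differences, double knockout minus wild type on floored signal (x axis), of measured genes in 10 lists (y axis); open circles are bounds, filled circles are measured above the floor on both arrays, orange bars are list medians, the dotted line is the median of all genes and dashed lines mark 2-fold. The muscle Z-disc genes overlap the skeletal muscle and fast fibre lists, and the non-muscle alpha-actinins fall among the focal adhesion genes.

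Markers of muscle fibres differed in the same direction as the muscle members. All 10 skeletal muscle markers were at least 2-fold lower (median -4.58 or lower), among them Acta1 (at least 64.5-fold), Ckm (at least 46.0-fold), Myh8 (at least 44.8-fold) and Casq1, which buffers calcium in the sarcoplasmic reticulum (at least 30.9-fold). The summed signal of these 10 was 14.21 on the log2 scale for the wild type against 8.42, and none exceeded the floor in the latter. Of 9 fast fibre genes 8 were at least 2-fold lower (median -3.79 or lower), among them Tnnt3, Atp2a1, Tnni2 and Tnnc2, at least 31.5-fold each. The other, Myh2, began 0.15 above the floor and could not be called, and as deposited its 2 values were 4.08-fold apart. Of 5 measured slow fibre genes 4 were at least 2-fold lower (median -1.79 or lower), the troponins Tnni1 (at least 11.6-fold), Tnnc1 (at least 5.99-fold) and Tnnt1 (at least 3.45-fold) and the slow myosin Myh7 (at least 2.57-fold). These bounds follow the height of each wild-type signal over the floor, so they give no order of loss among the genes or between fibre types.

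Cardiac muscle also makes Actn2, Tcap, Myoz2 and Ldb3. Of 9 cardiomyocyte markers, 8 were below the floor on both arrays, Myh6, Nppa, Nppb, Myl7, Tnni3, Mybpc3, Tbx20 and Ryr2. The 9 summed to 8.27 on the wild-type and 8.14 on the double-knockout array on the log2 scale, and Nkx2-5 alone was measured, at 6.66 and 6.31. Smooth muscle, which makes Actn1 and Actn4, had 7 of 8 markers above the floor on both arrays, with none 2-fold apart. Of all 10393 measured genes, 10056 were not called 2-fold apart either. Acta2 and Actg2 differed by -0.93 and -0.73, Mylk by 0.58 and Smtn by -0.26, and the summed signal was 11.79 on the wild-type and 11.20 on the double-knockout array.

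Markers of several other tissues were higher, as Actn1 and Actn4 were. All 6 epithelial markers were higher (median 0.42), among them Epcam (0.87), Cdh1 (0.69), Trp63 (0.49) and Krt14 (0.35), with a summed signal of 12.34 and 12.62. All 5 measured bone markers were higher (median 0.40), among them Dmp1 (0.58), Alpl (0.55), Sp7 (0.40) and Ibsp (0.22), with a summed signal of 13.72 and 13.97. All of these epithelial and bone differences also exceeded the median of all genes, by as little as 0.012 for Krt5 and 0.033 for Col1a1. Those 2 margins are less than the SD of 0.23 between probe sets of the same gene. The cartilage markers Sox9, Col2a1 and Acan differed by 0.76, 0.49 and -0.32, with a summed signal of 10.08 and 10.50 over all 6. The 6 salivary gland markers were all at least 2-fold higher (median 3.28), led by Pip (17.4-fold), Smgc (11.4-fold), Lpo (10.5-fold) and Bpifa2 (9.06-fold), and their summed signal was 10.85 on the wild-type and 13.93 on the double-knockout array. Endothelial markers had a median of 0.034, under that of all genes, with Tek at -0.49, Emcn at 0.31, Kdr at 0.23 and Cdh5 at 0.08, and a summed signal of 11.17 and 11.24. Of the erythroid markers Slc4a1 differed by -0.58 or lower and Alas2 by -0.15, and the list summed to 8.99 and 8.74. The part of these tissues in the Actn1 and Actn4 differences was not tested.

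The genes outside the set whose difference lay nearest the muscle members' median were found over these 2 arrays, by the distance between floored log2 differences. They were Pdlim3 (-4.11), the calcium store protein Casq2 (-3.89 or lower), the muscle enolase Eno3 (-3.81), the fast myosin light chain Mylpf (-3.79 or lower) and the cytochrome oxidase subunit Cox8b (-3.78 or lower). The median of -4.00 and 3 of the 5 differences are bounds, so this likeness depends on the floor. Without a floor the members' median was -5.79, and Pdlim3 and Eno3, which are not bounds, were not close to it.

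**Figure D4:**
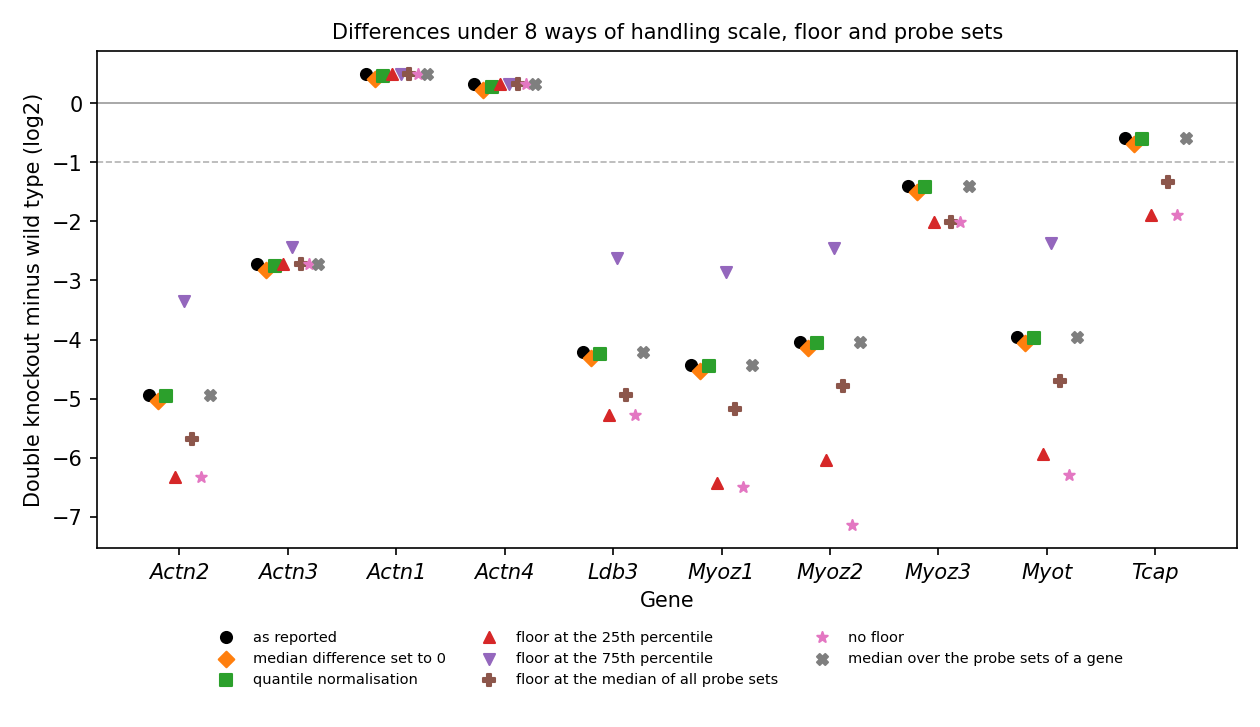
Log2 difference, double knockout minus wild type (y axis), of each gene (x axis) as reported and under 7 alternatives for scaling, floor and probe set choice, with a dashed line at 2-fold lower. The probe set choice cannot move these genes, which have 1 probe set each. Actn1 and Actn4 stay above 0 and all muscle members below 0 in each, and the bounded genes move with the floor; Tcap and Myoz3 have no value with the floor at the 75th percentile.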

How the data were processed

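Total RNA from fetal mandible was labelled with biotin and run on Affymetrix arrays, 1 for each genotype, per the labels' protocols. The deposited table holds log2 signals for 35557 probe sets. The base of the logarithm was read from the deposited values, which end at 13.35. MAS5 is named in the submitters' processing notes with no version. Background correction, normalization between arrays and genome build are not given in the sources used here, and the arrays were compared as deposited.

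GEO's platform annotation assigned 21789 probe sets to 1 gene, and the brightest probe set on the linear scale stood for a gene. Values under each array's floor (the 50th percentile of annotated probe sets) were raised to it. The genotypes were compared by log2 differences and by counts past 2-fold, with no test. The counting was run on simulated data with little noise, in which only genes well above the floor were changed. That simulation did not cover changes bounded by the floor. The number of arrays limits the precision. The members and lists were chosen with earlier results of these data known. Named genes were all members, Myf5 and Myod1, up to 4 measured genes of each list with the largest differences, the 4 brightest other Z-disc genes and the 5 nearest non-members. Alternatives were other scalings, floors, probe set summaries and fold thresholds. Promoter windows and gene overlaps came from RefSeq tables of GRCm38.p6, and windows of 5 of 10 members were searched. Chromosome 18, which carries Myot and Myoz3, was left out of the member search, so the motif counts do not cover those genes. Python 3.11.15, numpy 2.4.6 and pandas 2.3.3 were used.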

Additional observations from a re-analysis of the deposited data

How the results depend on the processing

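The 8 muscle members stayed lower and Actn1 and Actn4 higher under every alternative that gave them a value. With the floor at the 75th percentile Tcap and Myoz3 were unmeasured. The muscle members' median difference was -5.62 under a floor at the 25th percentile, -2.54 under one at the 75th, -5.79 without any and -4.74 under one at the median of all probe sets. The muscle minus non-muscle alpha-actinin difference was -4.94, -3.31, -4.94 and -4.61 in the same order. These follow from the construction of a bound, which moves with the floor. The number of muscle members at least 2-fold lower ran from 6 to 8 over floors and thresholds. Over all genes, the 284 lower and 53 higher ones became 134 and 20 under a floor at the 75th percentile, 531 and 319 at 1.5-fold, and 161 and 18 at 3-fold. Rescaling the arrays moved no member by more than 0.10. Taking the median over probe sets could not move a member, since each has 1 probe set. No paired analysis was possible because each genotype has 1 array. Differences between animals and between hybridisations cannot be measured here, and signals near the floor limit what can be said of Tcap and Myoz3.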
